A study of Mus musculus with 47 samples.

Results

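DNA methylation writers and erasers were followed in mouse P19 cells before and after neuronal differentiation. The 8 genes were chosen by name: the DNA methyltransferase genes Dnmt1, Dnmt3a and Dnmt3b, the catalytically inactive cofactor gene Dnmt3l, the Dnmt1 recruiting factor Uhrf1, and the dioxygenase genes Tet1, Tet2 and Tet3. They matched 8 distinct 3′ UTRs carrying 31 transcript names, of 30432 distinct 3′ UTRs and 18913 genes with a named mRNA in the deposited tables. The rule that selects them uses gene names.

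P19 is an embryonal carcinoma cell line, used here as wild type. D0 denotes undifferentiated cells, and D6 cells after 6 days in NDiff 227 medium with 500 nM retinoic acid. RNA was labeled with 4-thiouridine (4sU), a uridine analog that reads as a T-to-C conversion after alkylation, and sequenced from the 3′ end (SLAM-seq with a QuantSeq 3′ mRNA FWD library). Each state had an anabolic series, in which cells took up 4sU from 0 h to 9 h, and a catabolic series, in which 15 h of labeling (with fresh 4sU for the last 3 h) was followed by a chase with UTP from 0 h to 9 h. The 4sU concentration was 20 µM at D0 and 500 µM at D6, so state and dose cannot be told apart in labeled libraries. The anabolic 0 h libraries received no 4sU. Each of the 16 groups held 3 libraries, except that the third catabolic time point at D6 held 2, which gave 24 D0 and 23 D6 libraries. The sources conflict on the hours of the inner time points (3 and 6 h, or 1 and 3 h), so these are called the second and the third time point. The study's methods also give the labeling before the chase as 13 h in one place, and 15 h is used here. The labels do not state separate cultures, although the series text speaks of biological replicates, so p-values measure the spread between these libraries.

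Libraries held 3447888 to 11677046 reads on distinct 3′ UTRs at D0 and 1489528 to 7930149 at D6. In 4 D6 libraries the total was under 2000000. Marker genes separated the states: the summed level of 8 neuronal markers was 592 to 902 CPM (reads of a gene scaled to a common library total) at D0 and 5753 to 9426 CPM at D6. For 8 markers of undifferentiated cells it was 963 to 2100 CPM at D0 and 309 to 683 CPM at D6, with Zfp42 and Dppa5a at 0 reads throughout. Pou5f1, a pluripotency factor, fell from a mean of 27.1 CPM to 0.220 CPM in libraries without 4sU, and Map2, a neuronal microtubule protein, rose from 19.4 to 762 CPM (log2 differences -6.84 and 5.25, edgeR adjusted p = 0.00694 and 5.72e-06). Glial markers summed to 72.8 to 150 CPM at D0 and 2.80 to 106 CPM at D6, muscle markers to at most 22.1 and 0.561 CPM, endoderm markers to at most 5.44 and 20.5 CPM, and germ cell markers to at most 1.90 and 0.0862 CPM. A set of 12 genes of S phase and mitosis summed to 1588 to 2160 CPM at D0 and 658 to 1149 CPM at D6, while its member Mki67 was at 10.4 and 12.2 CPM without 4sU and had no call. The part of these shifts in the values of the methylation genes was not tested. In such bulk samples, fewer expressing cells and less RNA per cell cannot be told apart.

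Methylation of cytosine in CpG dinucleotides is written by Dnmt3a and Dnmt3b, which act on unmethylated DNA with Dnmt3l as a stimulating partner in germ and early embryonic cells. Dnmt1 copies the pattern to the daughter strand after replication, guided by Uhrf1, which recognizes hemimethylated CpG. Tet1, Tet2 and Tet3 oxidize 5-methylcytosine, the first step of active demethylation, and neurons are known for their high content of the oxidized base.

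The intervals differed widely in length (mm10 coordinates). The shortest were those of Dnmt3l (chr10:78063350-78063622, plus strand, 273 nt) and Dnmt1 (chr9:20907206-20907520, minus strand, 315 nt). Uhrf1 (chr17:56322503-56323486, plus strand, 984 nt) and Dnmt3b (chr2:153686400-153687730, plus strand, 1331 nt) were intermediate. Long 3′ UTRs were annotated for Tet2 (chr3:133463677-133466736, minus strand, 3060 nt), Tet3 (chr6:83362373-83368041, minus strand, 5669 nt), Dnmt3a (chr12:3907748-3914443, plus strand, 6696 nt) and Tet1 (chr10:62804570-62812531, minus strand, 7962 nt).

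The 3′ UTRs of Tet1, Tet3, Dnmt3a and Dnmt3b shared a sequence feature, matches to the seed of miR-29, a microRNA family long known to target de novo methyltransferase transcripts. The mature sequences from RefSeq (GRCm38) are shown with the seed, bases 2 to 8, in capitals, since all 3 family members carry the same one:
mmu-miR-29a-3p: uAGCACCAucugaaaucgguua
mmu-miR-29b-3p: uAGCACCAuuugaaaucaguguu
mmu-miR-29c-3p: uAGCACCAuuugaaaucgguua

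The match, TGGTGCT on the transcript strand, occurred 8 times in the Tet3 3′ UTR, 7 times in that of Tet1, 5 times in that of Dnmt3a and once in that of Dnmt3b. No match was present for Uhrf1 or Dnmt3l. Among all 3′ UTRs with a sequence, 10.7% held at least 1 match. Among those of similar length the share with at least as many was 0.314% for Tet3, 1.11% for Tet1, 2.38% for Dnmt3a and 12.8% for Dnmt3b. The first match of each gene is given in 5′ to 3′ direction with the TGGTGCT letters in capitals, as read from GENCODE transcripts on GRCm38:
Tet3, chr6:83367974-83368002, minus strand: gagctgctctgTGGTGCTtttgccctcat
Tet1, chr10:62812199-62812227, minus strand: accatagagtcTGGTGCTttcccccgggt
Dnmt3a, chr12:3908561-3908589, plus strand: cgacttcataaTGGTGCTttcaaaacagc
Dnmt3b, chr2:153686616-153686644, plus strand: gtagcccggcaTGGTGCTcatgttctctt

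These letters are a description of the transcripts and were not measured as binding sites. The 3′ UTRs of Dnmt1 and Tet2 were not searched.

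The first comparison asked how the levels of the writers and erasers differed between states in cells that received no 4sU. Dnmt3b was far lower at D6, and Dnmt1, Dnmt3a, Uhrf1 and the 3 Tet genes did not pass the test in these 6 libraries. Levels are CPM, scaled to each library's TMM-adjusted total over all mRNA transcripts, in which a 3′ UTR shared by several transcript names counts once for each name. One read stems from one transcript end, so the levels were not divided by length. Differences are log2 values of D6 over D0 from edgeR's quasi-likelihood test with Benjamini-Hochberg adjustment over all transcripts, and called means an adjusted p under 0.05. Of 16091 transcripts tested, 2115 were called (13.1%), 5.4% lower and 7.74% higher at D6. Dnmt3l was too low to be tested, and 1 of the other 7 genes was called.

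Dnmt3b, the de novo methyltransferase of the early embryo, was at 238.5, 214.1 and 278.1 CPM in the D0 libraries and at 8.68, 1.87 and 10.2 CPM in the D6 libraries. Every D6 library lay below every D0 library. The log2 difference was -5.15 (SE 0.56, edgeR adjusted p = 0.000190), and it held its call with each library left out, between -5.54 and -4.72.

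Dnmt3a, the other de novo enzyme, was the most abundant of the 8 genes, at 329.5, 401.2 and 337.6 CPM at D0 and 413.9, 412.3 and 311.2 CPM at D6. The groups overlapped, and the log2 difference was 0.04 (edgeR adjusted p = 0.948). Dnmt1, the maintenance enzyme, was at 102.5, 98.0 and 116.7 CPM at D0 and 77.0, 89.3 and 69.1 CPM at D6. The Dnmt1 groups did not overlap, as did not those of 36.1% of the transcripts tested, and the log2 difference of -0.48 was not called (edgeR adjusted p = 0.389). Uhrf1 was at 51.4, 29.1 and 72.1 CPM at D0 and 41.9, 21.9 and 37.7 CPM at D6, with overlapping groups (-0.62, edgeR adjusted p = 0.533).

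Among the erasers, Tet3 was at 61.7, 8.79 and 43.6 CPM at D0 and 92.1, 144 and 149 CPM at D6. Every D6 library lay above every D0 library, one D0 library was far below the other two, and the log2 difference was 1.72 (SE 0.58, edgeR adjusted p = 0.0795). Without that D0 library (number 56) it was 1.26 with an adjusted p of 0.0415, and DESeq2 gave 1.75 with an adjusted p of 0.0223. Tet2 was represented by 0, 0 and 55 reads at D0 and by 167, 93 and 263 reads at D6, or 0, 0 and 5.42 CPM against 25.4, 19.4 and 26.6 CPM. The groups did not overlap, while the edgeR adjusted p was 0.226. When D0 library 57, the only one with reads, was left out, the adjusted p was 0.00794; the fitted fold is then against libraries at 0 and depends on the prior count. Tet1 was at 37.97, 42.3 and 43.5 CPM at D0 and 85.2, 64.7 and 57.5 CPM at D6, without overlap, and was not called (0.70, edgeR adjusted p = 0.3).

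The next comparison used all 47 libraries, with a term for each of the 8 conditions (series and time point) beside the state. Dnmt3b and Uhrf1 were lower at D6, Tet2 and Tet3 were higher, and Dnmt1, Dnmt3a and Tet1 did not pass the test. Of 19138 transcripts tested, 9496 were called (49.6%), 28.3% lower and 21.3% higher, against 4 of the 7 methylation genes tested. This share is near the background.

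Dnmt3b ranged from 174 to 315 CPM over the D0 libraries, with a median of 230, and from 0.755 to 27.2 CPM over the D6 libraries, with a median of 3.31. The D6 mean was 37.8-fold lower, and the log2 difference was -5.43 (SE 0.28, edgeR adjusted p = 2.92e-25). Its difference was seen in each of the 8 conditions without overlap, from 15.6-fold at the third catabolic time point to 105-fold at the third anabolic one. A mean on the same side in all 8 conditions was found for 31.1% of transcripts. Overlap was counted over all transcripts only without 4sU, where 36.1% had none. The counts of conditions without overlap, here and for the genes below, therefore have no background beside them.

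Tet3 showed the converse order with a smaller size. It ranged from 8.79 to 61.7 CPM at D0 (median 44.6) and from 80.0 to 154 CPM at D6 (median 133), so no D6 library reached down to a D0 library. The log2 difference was 1.54 (SE 0.15, edgeR adjusted p = 4.57e-13), and the means per condition were 2.61-fold to 3.72-fold higher at D6 in 8 of 8 conditions, each without overlap.

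Uhrf1 ranged from 11.2 to 83.6 CPM at D0 (median 58.97) and from 0.222 to 41.9 CPM at D6 (median 21.9). The ranges overlapped, and the log2 difference was -1.55 (SE 0.32, edgeR adjusted p = 4.45e-05). Its mean was lower at D6 in 8 of 8 conditions, by 1.51-fold without 4sU to 6.34-fold at the third catabolic time point, and the libraries did not overlap in 5 of the 8. D6 libraries were uneven for this gene, since the third anabolic time point held 383, 7 and 1 Uhrf1 reads. The genes of S phase and mitosis moved with Uhrf1: 10 of 12 were called lower in all libraries (28.3% of all transcripts) and 3 of 12 in libraries without 4sU (5.4%), and their part in the Uhrf1 difference was not tested.

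Tet2 remained a low transcript, at 0 to 9.58 CPM at D0 (median 2.81) and 0 to 42.3 CPM at D6 (median 14.8). The log2 difference was 2.23 (SE 0.65, edgeR adjusted p = 0.00307); its mean was higher at D6 in 8 of 8 conditions, 3 of them without overlap.

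The 3 genes without a call in all libraries were not alike in spread. Dnmt1 ranged from 78.7 to 134 CPM at D0 and 35.9 to 199 CPM at D6 (log2 difference -0.17, edgeR adjusted p = 0.293). Dnmt3a ranged from 278 to 512 CPM at D0 and 164 to 542 CPM at D6 (-0.18, edgeR adjusted p = 0.122), and was called at -0.23 with an adjusted p of 0.0297 when D6 library 14 of the third catabolic time point, one of the 4 shallow libraries, was left out. Tet1 ranged from 21.6 to 95.6 CPM at D0 and from 0 to 116.8 CPM at D6 (0.32, edgeR adjusted p = 0.358). Its reads at the D6 second catabolic time point were 658, 297 and 4, and at the third 0 and 140. Without the 4 libraries of under 2000000 reads, a setting chosen after seeing the data, the Tet1 difference was 0.55 with an adjusted p of 0.0319.

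Dnmt3l was present as 103 reads in 7 of the 24 D0 libraries, 0.411 CPM over all 24 together, and as 0 reads in the 23 D6 libraries. In each D0 library with reads except number 63, the covered T positions were a whole multiple of the reads. Library 55 held 630 for 21 reads and library 59 held 780 for 26. The reads may thus stem from few RNA molecules, which was not tested. A count of 0 over the D6 libraries allows up to 3 reads, or 0.0223 CPM, for counting error only. That bound holds for independent reads, so the size of the difference cannot be read from these values.

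**Figure D1:**
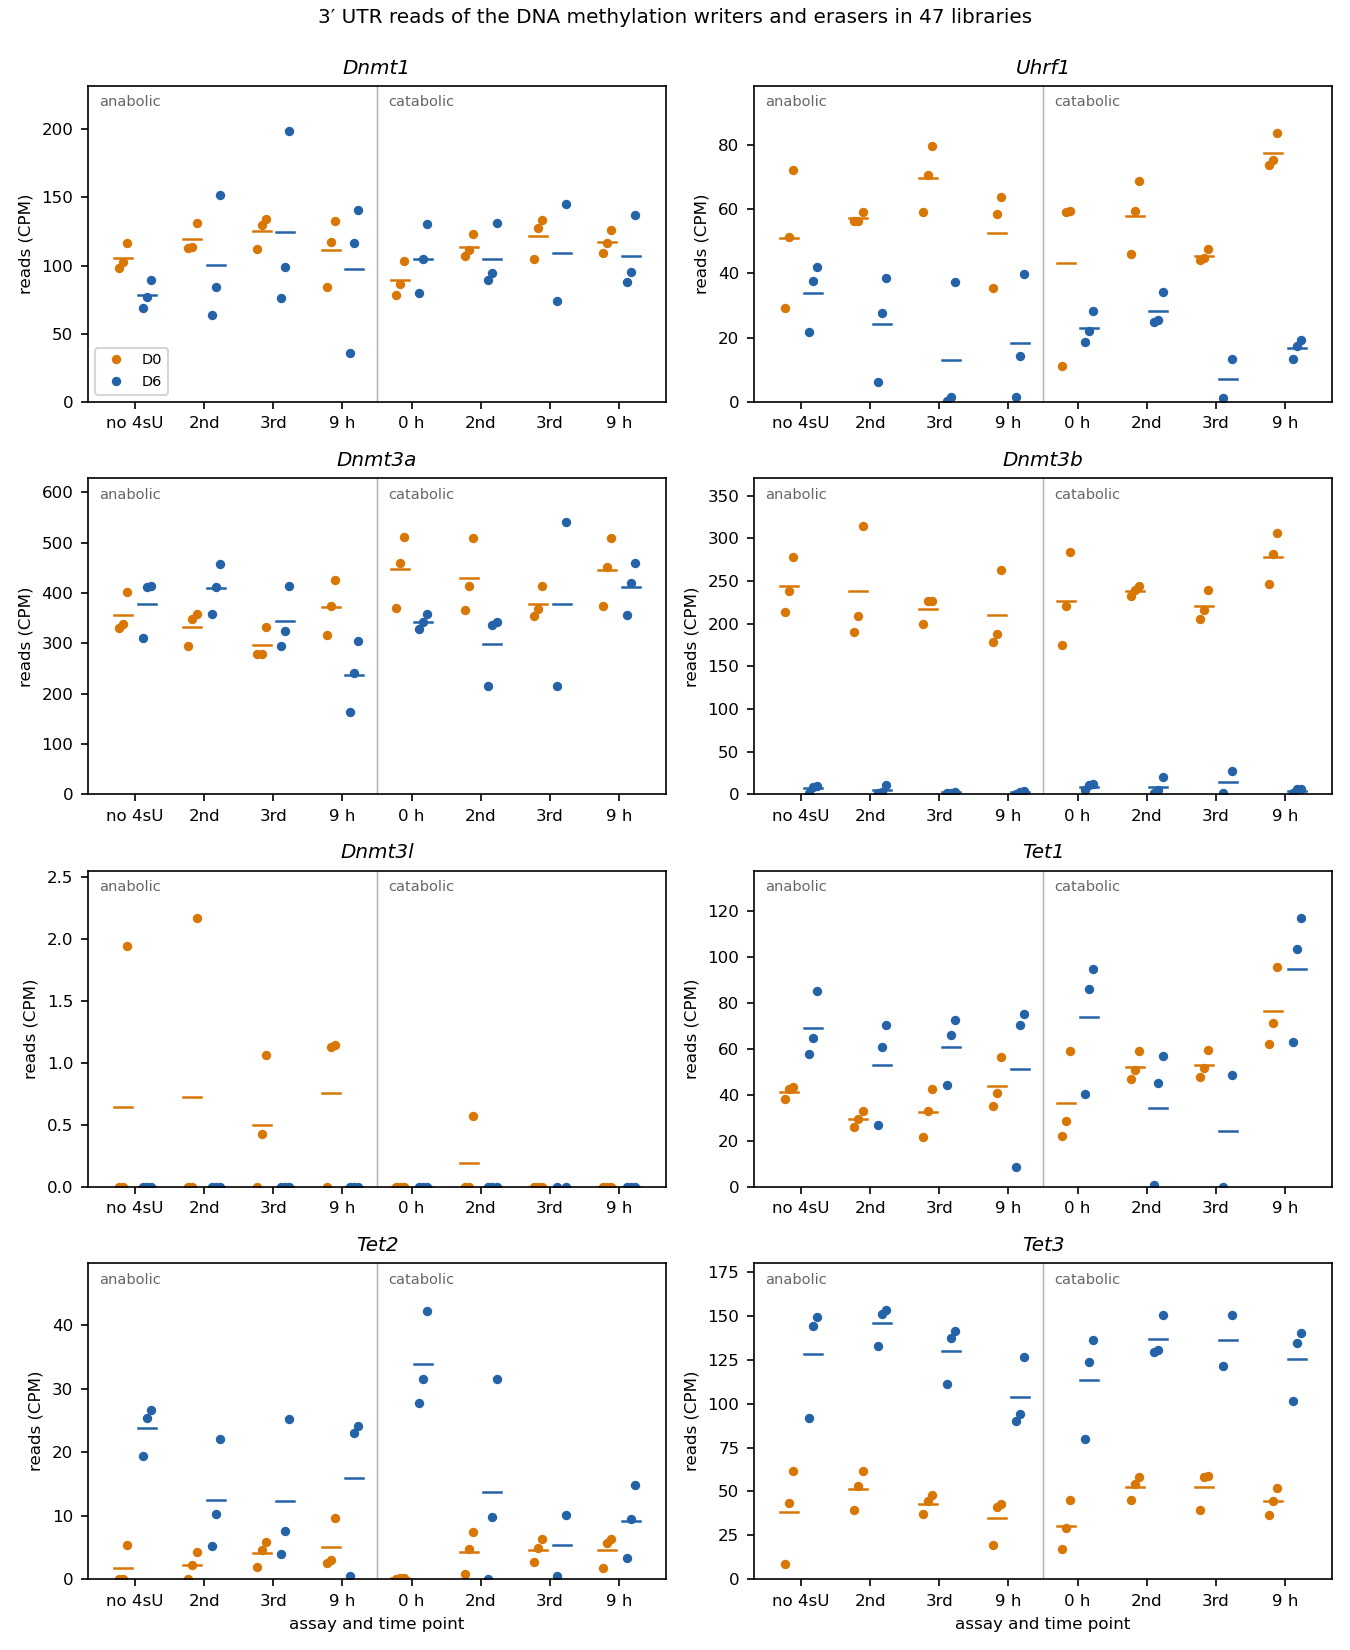
Level of each of the 8 genes in every library, in CPM, with D0 in orange and D6 in blue, ordered as anabolic then catabolic time points; horizontal bars are group means. The Dnmt3b points at D6 lie at or below 27.2 CPM while the D0 points lie at or above 174 CPM, and the Tet3 points at D6 all lie above those at D0.

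**Figure D2:**
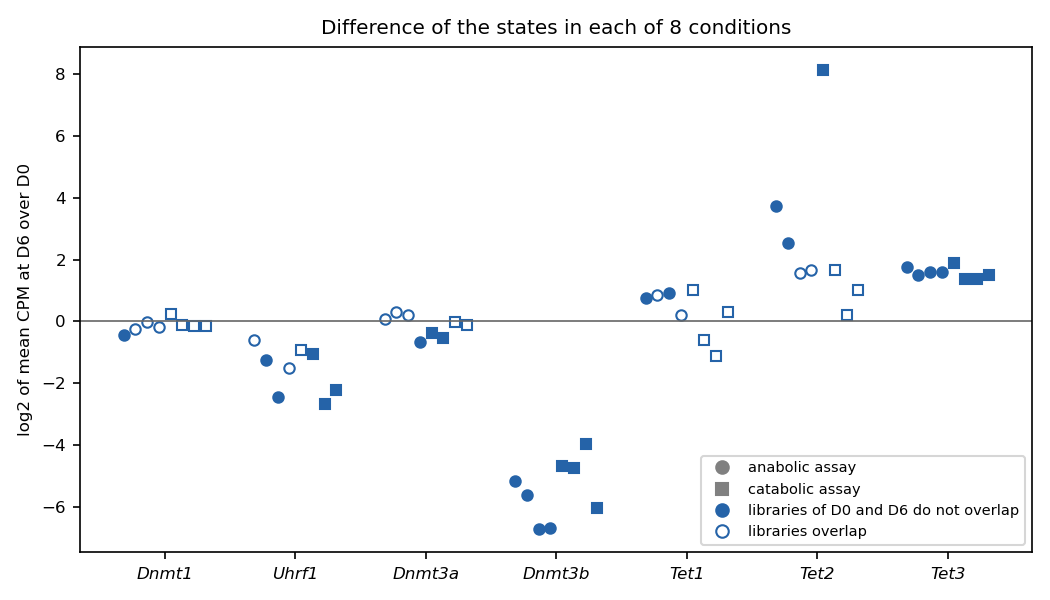
Log2 ratio of the mean CPM at D6 to that at D0 in each of the 8 conditions for 7 genes, with circles for the anabolic and squares for the catabolic series and filled symbols where the libraries of the states do not overlap. Dnmt3b is below 0 and Tet3 above 0 in 8 of 8 conditions with filled symbols throughout, while Dnmt1, Dnmt3a and Tet1 fall on both sides of 0.

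The make-up of each family is given as shares of reads, as a description without a test. Of the reads on Dnmt1, Dnmt3a and Dnmt3b, Dnmt3b held a median of 31.2% at D0 and 1.03% at D6. The share of Dnmt3a went from a median of 51.2% to 77.5%, and that of Dnmt1 from 15.4% to 21.3%, while the levels of both had no call. Among Tet reads, Tet3 held a median of 47.8% at D0 and 63.2% at D6, Tet1 46.9% and 28.4%, and Tet2 3.38% and 5.87%. A share moves with the other members of its sum: the all-library log2 level differences were -0.18 for Dnmt3a, -0.17 for Dnmt1 and 0.32 for Tet1. The Tet genes together made up 5.05% to 15.1% of the reads on these 6 genes at D0 and 15.1% to 40.1% at D6. Their medians were 11.3% and 31.2%.

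**Figure D3:**
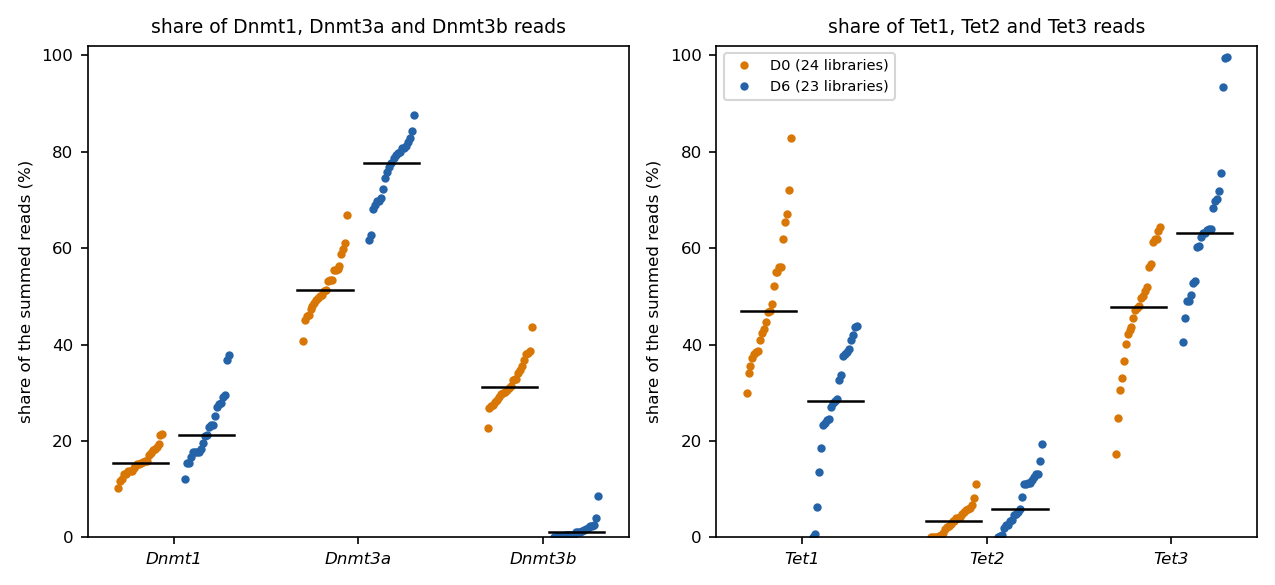
Share of each gene, in percent, in the reads of its family (Dnmt1, Dnmt3a and Dnmt3b, or Tet1, Tet2 and Tet3) in every library at D0 and D6; black bars are medians. Dnmt3b has a median share of 31.2% at D0 against 1.03% at D6, and Tet3 one of 47.8% against 63.2%.

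Libraries after 15 h of labeling (catabolic series, 0 h) were then compared with unlabeled ones (anabolic series, 0 h). This difference is called the response to 4sU, although 4sU and series cannot be told apart in it. Of the methylation genes, 6 were tested at D0, where Tet2 and Dnmt3l were too low, and 7 at D6. None was called at D0 (lowest edgeR adjusted p = 0.9998) or D6 (0.984), where 0 of 15494 and 8 of 15615 transcripts (0.0512%, with 0.0064% higher and 0.0448% lower) were called. At D0 319 transcripts had an unadjusted p under 0.05, and DESeq2 called 10. At D6 these counts were 910 and 275, with no methylation gene among the DESeq2 calls. For the difference between states in the response to 4sU, 0 of 17569 transcripts were called by edgeR, 846 had an unadjusted p under 0.05, and DESeq2 called 115. The largest value of a methylation gene was that of Tet2, at 4.27 with an unadjusted edgeR p of 0.0567. The D0 groups behind it held 55 Tet2 reads without 4sU and 2 after 15 h.

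Label loss was then compared. The conversion rate is the number of T-to-C conversions in percent of the T positions covered by reads, and the rate over all transcripts fell from a mean of 1.42% to 0.415% over the D0 chase and from 4.63% to 0.884% at D6. For each transcript the change from 0 h to 9 h was tested relative to that over all transcripts. At D0, Dnmt1 and Tet1 kept less label than transcripts as a whole, and no methylation gene was called at D6. Of 14426 transcripts tested at D0, 1975 were called (13.7%), 10.3% with less label left. The 7 genes other than Dnmt3l passed the minimum of a mean of 1000 covered T positions per library, and 2 of them were called.

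Dnmt1 conversion rates at D0 were 2.40%, 1.57% and 1.99% at 0 h and 0.147%, 0.236% and 0.173% at 9 h, over 54003 and 152089 covered T positions in all. The pooled rate at 9 h was 8.97% of that at 0 h, where the median over 13530 transcripts was 16.7% and all transcripts together kept 29.3%. In unlabeled D0 libraries the mean rate over all transcripts was 0.171%, beside 0.415% at 9 h. For Dnmt1 the pooled rates were 0.00455% unlabeled and 0.180% at 9 h. Part of the 29.3% thus lies within the unlabeled rate, and far less of the Dnmt1 value does. The test that follows did not subtract these unlabeled rates, so part of the Dnmt1 difference may stem from them. The log2 difference from all transcripts was -1.65 (SE 0.33, edgeR adjusted p = 0.00155), and it stayed called with each library left out.

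Tet1 rates at D0 were 3.10%, 2.64% and 1.79% at 0 h and 0.161%, 0.0246% and 0.221% at 9 h. The label left was 6.30%, and the log2 difference -2.43 (SE 0.67, edgeR adjusted p = 0.0167; at most 0.0499 with 1 library left out). In D0 libraries without 4sU the Tet1 rate was 0.134%, 1.03% and 0.571%, with a pooled rate of 0.478% beside a median of 0.0213% over all transcripts, so the pooled unlabeled rate was above each of the 9 h values and the label left lies within it. Relative to the median transcript in place of all transcripts together, a setting chosen after seeing the data, neither gene was called: Dnmt1 was at -0.98 (edgeR adjusted p = 0.0545) and Tet1 at -1.76 (edgeR adjusted p = 0.0880).

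The other genes had no call at D0. Tet3 fell from rates of 0.178%, 1.52% and 2.06% to 0.147%, 0.0204% and 0.0103%, with an uneven 0 h group, and kept 4.18% of its label (log2 -2.59, edgeR adjusted p = 0.0939). Tet3 was called by DESeq2 (-2.60, adjusted p = 0.0287), without 0 h library 25 (-3.09, edgeR adjusted p = 0.0490) and without 9 h library 34 (-4.64, edgeR adjusted p = 0.0141). Dnmt3b went from 2.44%, 1.76% and 1.23% to 0.462%, 0.173% and 0.296% and kept 16.3% (-0.77, edgeR adjusted p = 0.0993), and it was called without 9 h library 34 (-1.19, edgeR adjusted p = 0.0151). The pooled Dnmt3b rate at 9 h was 0.305%, beside 0.128% in D0 libraries without 4sU, so part of it lies within the unlabeled rate. Dnmt3a kept 17.2% (-0.60, edgeR adjusted p = 0.201) and was called without 9 h library 35 (-1.04, edgeR adjusted p = 0.00890). Its pooled rate at 9 h was 0.227%, beside 0.186% in D0 libraries without 4sU, so most of this value lies within the gene's unlabeled rate. Uhrf1 went from 0.929%, 1.11% and 1.04% to 0.0626%, 0.119% and 0.205%, and 9 h library 36 held 82 of the 128 conversions behind its 13.9%. For Tet2 the D0 0 h libraries held 2 reads in all, so its loss could not be measured.

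At D6, 96 of 14426 transcripts were called (0.665%, with 0.347% having more and 0.319% less label left), and none was a methylation gene. DESeq2 called Tet2 (-4.82, adjusted p = 0.0341), where edgeR gave -4.76 with an adjusted p of 0.260. The Tet2 value at 9 h rests on 1 conversion over 3960 covered T positions, and its 0 h rates were uneven, at 10.7%, 1.69% and 4.59%. Tet3 rates were 6.47%, 7.47% and 5.75% at 0 h and 0.349%, 0.516% and 0.152% at 9 h, and 5.11% of its label was left. Every 9 h value lay below every 0 h value for Tet3, as also for Dnmt1, Dnmt3a, Tet1 and Tet2. Dnmt1 went from 4.47%, 3.02% and 4.01% to 0.261%, 0.684% and 1.13%, or 15.9% left, and Tet1 from 5.31%, 5.25% and 4.34% to 0.934%, 0.741% and 0.0366%, or 14.2% left. The pooled Tet1 rate at 9 h was 0.713%, beside 0.406% in D6 libraries without 4sU, so most of it lies within the unlabeled rate. Dnmt3a kept 10.3%, beside a median of 11.1% over all transcripts, with a pooled 9 h rate of 0.359% against 0.243% in D6 libraries without 4sU. The pooled value of 19.0% for Uhrf1 rests on library 7, since its 0 h rates were 4.84%, 1.07% and 0.154% and those at 9 h 0.596%, 0.146% and 0.819%, and it cannot be read as label left. Dnmt3b was too low at D6 for its 25.7% to be read, since the 9 h value rests on 4 conversions.

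The change of label loss between states was tested as an interaction, which called 27 of 14426 transcripts (0.187%, of which 0.0139% were higher and 0.173% lower at D6) and no methylation gene. The difference was 0.95 for Dnmt1 (SE 0.73, edgeR adjusted p = 0.628), 1.08 for Tet1 (SE 1.205, edgeR adjusted p = 0.777) and 0.09 for Tet3 (SE 1.17, edgeR adjusted p = 0.9998).

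**Figure D4:**
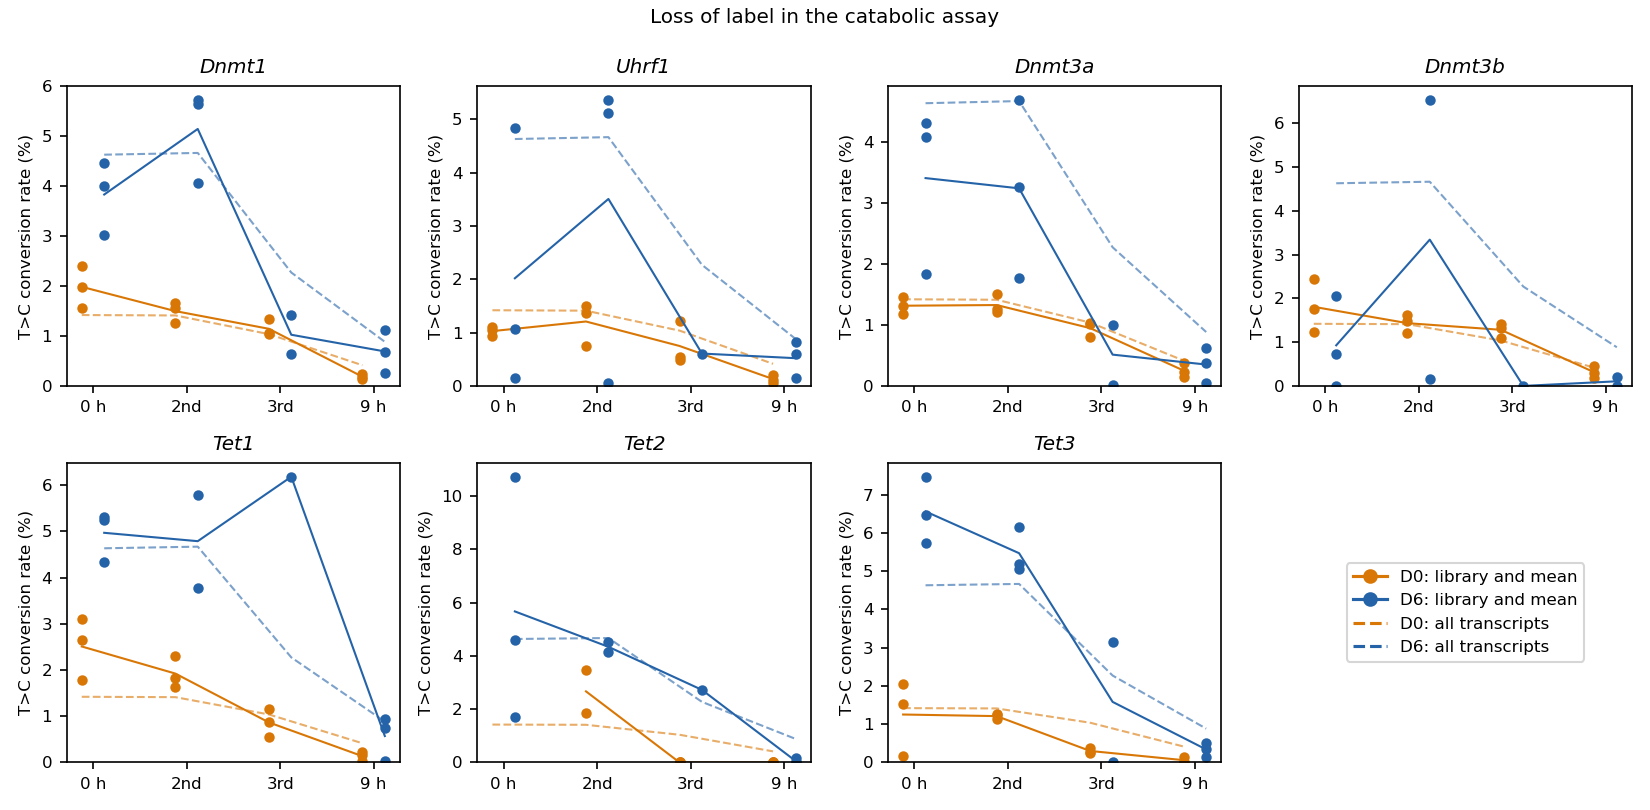
Conversion rate in percent over the catabolic time points for 7 genes, for libraries with at least 300 covered T positions of the gene, with D0 in orange and D6 in blue; lines are means and dashed lines the rate over all transcripts. Dnmt1 at D0 falls from rates of 1.57% to 2.40% at 0 h to between 0.147% and 0.236% at 9 h.

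Half-lives were fitted by single exponentials with the hours of the study's methods and kept where R² exceeded 0.6. In the D0 chase, 4 genes met this, with half-lives of 239 min for Tet1 (SE 43.6), 306 min for Dnmt1 (SE 52.8), 389 min for Dnmt3b (SE 89.4) and 466 min for Dnmt3a (SE 112). Neighbours in this order lay within their summed errors. Of all transcripts, 14.9% met the criterion at D0, with a median of 285 min, and 12.85% met it at D6. With 1 library left out, Dnmt3b missed the R² minimum in 5 of 12 fits (without library 25, 26, 34, 35 or 36) and Dnmt3a in 3 of 12 (without 25, 34 or 35). Tet3 alone met it at D6, with 236 min (SE 52.9) beside a median of 240 min, although its 2 libraries at the third time point were at 0.0136% and 3.15%. With the hours of the labels the values were 127 min for Tet1, 189 min for Dnmt1, 256 min for Dnmt3b, 299 min for Dnmt3a and 123 min for Tet3, so the absolute scale depends on the hours. Dnmt3a at D6 also met the criterion with these hours (132 min, R² 0.63). With each gene's unlabeled rate subtracted and the hours of the methods, Tet1 was at 170 min (SE 46.0), a move larger than its error. The other values were then 305 min for Dnmt1, 352 min for Dnmt3b and 386 min for Dnmt3a at D0, and 236 min for Tet3 at D6. With the 0 and 9 h libraries alone, whose hours are not in conflict, the values were 128 min for Tet1, 158 min for Dnmt1, 212 min for Dnmt3b, 226 min for Dnmt3a and 126 min for Tet3 at D6. In that fit Uhrf1 at D0 (180 min) and Dnmt1 (218 min), Dnmt3a (165 min) and Tet1 (173 min) at D6 met the criterion as well. The share of all transcripts that met it was then 34.2% at D0 and 48.25% at D6.

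Label uptake was tested by setting the 9 h anabolic rate against that reached by 15 h of labeling, relative to all transcripts. By edgeR 0 of 14426 transcripts were called at D0, with 672 at an unadjusted p under 0.05 and 60 called by DESeq2. At D6 the count was 0 as well, with 541 at an unadjusted p under 0.05 and 7 called by DESeq2. For the difference between states it was 0, with 847 and 56. At D0 the 9 h rate of Dnmt1 was 56.2% of its rate after 15 h, that of Tet1 60.7%, of Dnmt3b 63.6%, of Dnmt3a 93.6% and of Uhrf1 131%, beside a median of 92.0%. No value is given for Tet2, with 2 reads after 15 h, or for Tet3, whose rates after 15 h were uneven. At D6 the share was 141% for Dnmt1, with 9 h rates of 6.44%, 5.37% and 4.82%, and 68.6% for Tet3, with 4.90%, 4.17% and 4.44%, beside a median of 78.6%. The D6 libraries of the other genes were too uneven or too low for one value. Tet1 rates at 9 h were 7.75%, 0.347% and 3.58%, those of Dnmt3a 2.64%, 0% and 3.01%, and those of Tet2 after 15 h 10.7%, 1.69% and 4.59%. Synthesis half-lives, fitted to the uptake by the same criteria, were 339 min for Dnmt3a (SE 78.2), 538 min for Dnmt3b (SE 113) and 701 min for Dnmt1 (SE 127) at D0 and 414 min for Tet3 (SE 62.6) at D6. Dnmt1 had the longest value of the 3 at D0, and its distance from Dnmt3a exceeded their summed errors. Over all transcripts, 21.9% met these criteria at D0 and 9.32% at D6. With the hours of the labels they were 208 min for Dnmt3a, 363.5 min for Dnmt3b, 484 min for Dnmt1 and 266 min for Tet3, and with 0 and 9 h alone 123, 314, 434 and 323 min. With background subtracted, Dnmt3a and Dnmt3b missed the R² minimum, as did Dnmt3a without library 55, 71 or 72 and Dnmt3b without library 25, 56, 70 or 71.

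Genes that work with the writers and erasers were taken from 5 lists with 47 genes. In libraries without 4sU, 40 were tested, 4 were called higher and 4 lower at D6, beside a background of 7.74% and 5.4%. Among the higher were the uracil DNA glycosylase gene Smug1 (5.60 to 151 CPM, log2 4.71, edgeR adjusted p = 4.77e-05), the stress-response gene Gadd45g (5.78 to 296 CPM, 5.64, edgeR adjusted p = 0.00196) and Cxxc4, which binds unmethylated CpG (20.4 to 120 CPM, 2.51, edgeR adjusted p = 0.00439). Lower were the corepressor Trim28 (-1.19, edgeR adjusted p = 0.0117) and 3 of 8 genes of methyl donor supply, the S-adenosylmethionine synthetase Mat2a (-1.41, edgeR adjusted p = 0.00432), the methionine synthase Mtr (-1.71, edgeR adjusted p = 0.0368) and the folate enzyme Mthfd1 (-3.47, edgeR adjusted p = 0.00397). Hells, a chromatin remodeler needed for methylation, was at -1.56 (edgeR adjusted p = 0.0507), and Pcna, the replication clamp, at -0.84 (edgeR adjusted p = 0.528).

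In all libraries 44 were tested, 11 called higher and 17 lower, beside a background of 21.3% and 28.3%. Of the methyl donor genes 6 of 8 were lower, with a list median of -1.01 beside -0.21 over all transcripts. Of the methyl-CpG readers 4 of 8 were higher. Of 10 maintenance and targeting partners 5 were lower and 2 higher; Hells (-1.98, edgeR adjusted p = 1.05e-13) and Pcna (-0.74, edgeR adjusted p = 0.0108) were among the lower. Of 13 genes of demethylation and base excision 5 were lower and 2 higher. Tdg, the glycosylase that removes oxidized 5-methylcytosine, was hardly detected, at 1.41 CPM at D0 and 0 at D6 without 4sU. For label left after 9 h at D0, 38 of these genes were tested, of which 2 had more and 5 less than all transcripts, beside a background of 3.38% and 10.3%. At D6 none of the 38 was called by edgeR.

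**Figure D5:**
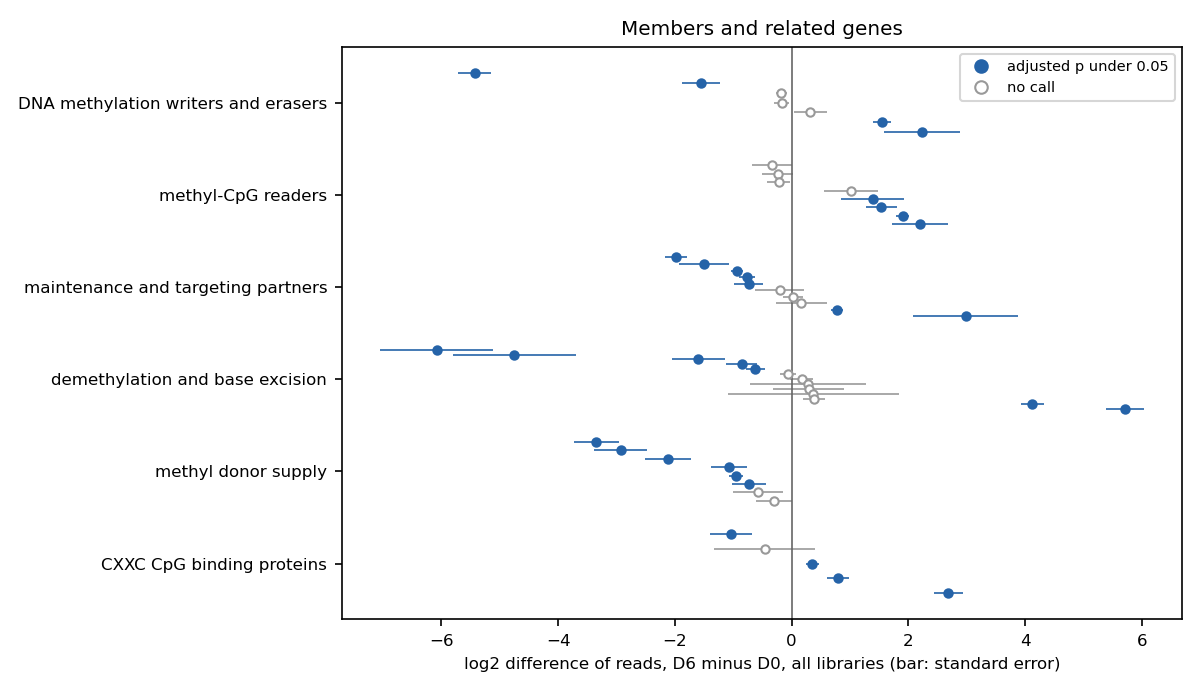
Log2 difference of reads, D6 over D0 in all libraries, for the methylation genes and 5 lists of related genes; bars are standard errors and filled symbols have an adjusted p under 0.05. Dnmt3b at -5.43 is the lowest of the methylation genes, and 6 of the 8 methyl donor genes are called lower.

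Transcripts of similar pattern were ranked by Pearson's r of log2 mean levels over the 16 conditions among 9343 candidates. These values are a description, since the points share libraries. The points also span both states, so genes that differ strongly between states in the same direction reach a high r with each other. Near the top for Dnmt3b were Prps1 (0.987) and C1ql2 (0.983), for Uhrf1 Plaat3 (0.976) and Arhgap19 (0.973), for Tet3 Cmip (0.974), and for Tet2 Pik3ca (0.927) and Rfesd (0.922). The best values were lower for Tet1 (Entpd7, 0.878), Dnmt3a (Tmem138, 0.844) and Dnmt1 (P4hb, 0.778), the 3 genes without a call between states in all libraries.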

How the data were processed

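The authors aligned the SLAM-seq reads to mm10 and counted them with SLAMdunk 0.3.3 over 3′ UTR intervals, with single-nucleotide variants masked. The deposited tables give read counts, covered T positions and T-to-C conversions per interval as counts. The conversion rate (a fraction) and CPM values deposited by the authors were not used. Rates and CPM were recomputed from counts summed per mRNA transcript. Library depth and the rate over all transcripts count an interval shared by several transcript names once, whereas tests and CPM totals count it for each name. Reads and conversions were tested with edgeR 4.0.16 (quasi-likelihood, prior count 0.125, R 4.3.3) with Benjamini-Hochberg adjustment over all transcripts tested, with DESeq2 1.42.0 and limma 3.58.1 as alternatives. Read counts were scaled by TMM and filtered with filterByExpr. Conversions were modelled with the covered T positions as offset, multiplied by the library's rate over all transcripts where values are relative to all transcripts. Tests were checked on simulated counts, and the outcome is not reported here. Half-lives longer than 5000 min were discarded. Members, gene lists and tests were chosen with earlier results of these data known. The rule for named genes took the 8 members, up to 2 related genes per list and direction with the smallest p without 4sU, Tdg, Hells and Pcna, the markers Pou5f1, Map2 and Mki67, and up to 2 transcripts per member of most similar pattern. Of these, related genes other than the 3 just listed are named only where called, and the third gene called in a list was added after its values were seen. A few genes that the rule takes are not reported here. Sequences were read from GENCODE M21 and RefSeq (GRCm38). Of 19647 3′ UTRs, 15463 matched a transcript with the same number of T positions.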

Additional observations from a re-analysis of the deposited data

How the results depend on the processing

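The Dnmt3b call without 4sU and the calls of Dnmt3b, Uhrf1, Tet2 and Tet3 in all libraries kept direction and side of the threshold under every alternative run for them. No paired analysis was possible because the library numbers in the titles are unique across groups. Low depth at D6, uneven 0 h libraries of Tet3 and the few reads of Tet2, Dnmt3l and, at D6, Dnmt3b limit what the label can show. Of the log2 values of members under other settings, 194 kept direction and side, 8 gained and 2 lost a call, and 5 reversed. With 1 library left out 513 kept both, 7 gained a call and 19 reversed. Causes were not tested beyond this: 1 transcript per 3′ UTR cluster tests fewer transcripts.

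Counts of calls over all transcripts moved as follows. With DESeq2 the D6 against D0 count without 4sU was 3503 (edgeR 2115), the label left at D0 3342 (1975) and at D6 805 (96), the label left between states 502 (27), the response to 4sU 10 at D0 (0), 275 at D6 (8) and 115 between states (0), and uptake 60, 7 and 56 (0 each). With 1 transcript per cluster the counts were 1256 without 4sU, 6106 in all libraries (9496), 1177 and 53 for label left at D0 and D6, and 1 each for the response to 4sU at D6 and between states. RLE normalization gave 1 and no filter 82 for the response at D6, and no filter 38 between states. The limma fit with background subtracted gave 219 and 60 for label left at D6 and between states and 232, 14 and 16 for uptake. The slope over the hours of the methods gave 1087 at D0 and 3 between states, that over the hours of the labels 222 at D6 and 98 between states. Label left between states was 45 with a minimum of 5000 covered T positions and 9 with the rate over all transcripts as offset, and label left at D6 was 170 relative to the median transcript, an alternative chosen after seeing the data, as were the low-depth and the leave-one-out fits in all libraries.

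With 1 library left out, counts ranged from 1253 (without D6 unlabeled library 37) to 2307 without 4sU, from 9225 to 10007 in all libraries, from 0 to 3 for the response to 4sU at D6 and 0 to 9 between states, from 1507 to 2174 for label left at D0, from 23 (without 0 h library 8) to 76 at D6 and from 10 (without D6 0 h library 8) to 127 (without D6 9 h library 16) between states. The response at D0 and uptake stayed at 0.

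Reversed values all lacked a call. Relative to the median transcript, label left was 0.067 for Dnmt3a at D0 and 0.64 for Dnmt1 at D6. Between states, the slope over the hours of the methods gave -0.059 for Dnmt1 and -0.40 for Dnmt3b, and that over the hours of the labels -0.36 for Dnmt3b. With 1 library left out, Dnmt3a without 4sU ranged from -0.029 to 0.18, Tet2 label left at D0 from -8.51 to 0, and at D6 Dnmt1 from -0.67 to 0.37, Dnmt3b from -0.66 to 2.53 and Uhrf1 from -0.052 to 2.20. Between states Dnmt3b ranged from -0.63 to 1.95, Tet2 from -6.95 to 2.92 and Tet3 from -0.46 to 2.12.

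The decay fits gave 5 half-lives of members, 9 with 0 and 9 h only and 14 with no minimum of R², and 3 (without D0 9 h library 34 or 35) to 6 with 1 library left out. The synthesis fits gave 4, 7 with the hours of the labels, 2 with background subtracted and 14 with no minimum, and 2 (without D0 9 h library 71) to 6 with 1 library left out.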

Other observations

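Other sequence elements were searched in the 3′ UTRs on the transcript strand, as a description. The seed match of miR-294, a microRNA of embryonic stem cells, is AGCACTT and was present 3 times for Tet3 and 2 times for Tet1, where 6.29% and 24.4% of 3′ UTRs of similar length held at least as many. The Pumilio site TGTANATA occurred 3 times each in Tet1 and Tet3 and 1 time in Dnmt3a. The share of 3′ UTRs of similar length with at least as many was 40% for Tet1, 16.7% for Tet3 and 78.6% for Dnmt3a, and 19.4% of all 3′ UTRs with a sequence held it. The seed match of miR-9, a neuronal microRNA, is ACCAAAG and was present 1 time each for Dnmt3a and Uhrf1, as in 44.05% and 9.74% of 3′ UTRs of similar length. The AU-rich nonamer TTATTTATT was present 1 time for Tet1, as in 28.9% of those of similar length, and the let-7 seed match CTACCTC 1 time for Tet3, also as in 28.9%.

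Conversions in libraries without 4sU were uneven among the methylation genes. The pooled rates at D0 and D6 were 0.478% and 0.406% for Tet1, 0.186% and 0.243% for Dnmt3a and 0.128% and 0.168% for Dnmt3b, all above the medians over all transcripts of 0.0213% and 0.0211%. Those of Uhrf1, Tet2 and Tet3 were at most 0.0125% in either state. Dnmt1 was at 0.00455% at D0 and at 0.0771% at D6, where library 38 held 39 of its 43 conversions.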
